A study of Mus musculus with 16 samples.

Results

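The 10 genes described here make up the core of the NRF2 antioxidant pathway as measured in mouse liver: Nfe2l2, which encodes the transcription factor NRF2, Keap1, which encodes its inhibitor, and 8 target genes, Nqo1, Gclc, Gclm, Hmox1, Srxn1, Txnrd1, Gsr and Ephx1. They are textbook pathway members looked up by gene symbol. Like the gene lists further below, they were chosen with earlier results of these data known. The shares of all genes given beside their counts are therefore no test of enrichment. All 10 were found among the 35275 gene IDs of the deposited table and among the 11298 genes kept for testing. Averaged over both genotypes, 4 of the 10, Srxn1, Hmox1, Nqo1 and Gsr, were higher on an ethanol diet than on a control diet, where 4.59% of all genes tested were; the call of Gsr was lost in most fits that left out 1 library. Gclm, the modifier subunit of the first enzyme of glutathione synthesis, was lower in every wild-type ethanol library than in any wild-type control library, although its difference did not pass the test. No difference between the genotypes passed the test for any of the 10 genes.

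NRF2 is held in the cytoplasm by KEAP1, which hands it to a CUL3 ubiquitin ligase for destruction. Electrophiles and oxidants modify cysteines of KEAP1, NRF2 then escapes, enters the nucleus, pairs with small MAF proteins and binds antioxidant response elements beside its target genes. In the liver these targets make and recycle glutathione and thioredoxin, reduce quinones, open epoxides and break down haem. Since this control acts on the NRF2 protein, the abundance of the Nfe2l2 mRNA is not itself a measure of NRF2 activity.

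The livers came from mice labelled WT or L1 LKO, the second being a liver-specific knockout of Zfp36l1, fed a control diet or a diet containing ethanol (EtOH), and each of the 4 groups held 4 libraries. ZFP36L1 attaches to AU-rich elements in mRNAs and hastens their decay. The labels do not name the Cre line, the strain, the sex, the age or the length of feeding. Nor do they say whether each library is a separate animal, so p-values measure only the spread between these libraries. Libraries are numbered here 1 to 4 within a group in the order of the records. The titles carry 16 different numbers, some of them neighbours across the diets, whose meaning the labels do not give, so no library was paired with another.

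Values are FPKM, fragments scaled to gene length and library size, which allow levels of different genes to be compared per length. Total reads per library, worked out from the steps of the FPKM values, ranged from 9890475 in WT ethanol library 2 to 24768569, with 19069903 the lowest of the other 15. WT ethanol library 2 stood apart: 22.52% of its reads came from the mitochondrial genome, against 3.64 to 6.97% in the other 15, and its rank correlation with them across genes was 0.664 to 0.721, against 0.858 to 0.985 among the others. Its summed red cell markers were 2160 FPKM, against 100 to 286 in the other 15. Its bile duct markers summed to 75 FPKM (10.8 to 28.5 in the other 15), and its stellate (16.2) and endothelial (15.6) marker sums were the lowest of all 16. Diet responses of the 10 genes are therefore also given without it where that changes a call or the direction. Zfp36l1 was at 9.3 to 25.5 FPKM in the 8 WT libraries and at 0.572 to 1.76 in the 8 LKO libraries, as their labels say. Hepatocyte markers (Alb, Apoa1, Ttr, Cps1, Tat, Hpd) summed to 42386 to 73243 FPKM per library, but within that sum Cps1 was 36.5 FPKM in WT ethanol library 2, against 339 at the least in the others. In whole liver, fewer cells of a type and less RNA per cell cannot be told apart. Within groups, and leaving out WT ethanol library 2, libraries 1 and 2 also lay apart from libraries 3 and 4 on the first component of variation, for which the labels give no reason.

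The RefSeq promoter windows, 250 bases before to 50 bases after the transcription start on GRCm38.p6, were available for 7 of the 10 genes, Nfe2l2, Keap1, Nqo1, Gclm, Srxn1, Txnrd1 and Ephx1. They were searched on both strands for the core of the antioxidant response element, TGACNNNGC, and for TGANTCAGC, the form that holds the palindrome shared with AP-1 sites; a sequence can match both. TGACNNNGC occurred in 4 of the 7 genes (Nfe2l2, Gclm, Srxn1 and the second of 3 windows of Txnrd1) in 17% of the 8660 kept genes with a window and in 12.4% of all 32851 windows. TGANTCAGC occurred in Srxn1 alone of the 7 genes, in 1.39% of the kept genes and in 1.19% of all windows. The windows of Srxn1 (chr2:152105274-152105573, plus strand) and Gclm (chr3:122245307-122245606, plus strand) are printed 5′ to 3′ because these were the gene with the largest rise on ethanol and the gene with the lowest fold change. Capitals mark the matches. In Srxn1 the first match is TGANTCAGC, starting at −45 from the transcription start, and the second is TGACNNNGC on the opposite strand, starting at 29. In Gclm the match is TGACNNNGC on the opposite strand, starting at −134.
Srxn1: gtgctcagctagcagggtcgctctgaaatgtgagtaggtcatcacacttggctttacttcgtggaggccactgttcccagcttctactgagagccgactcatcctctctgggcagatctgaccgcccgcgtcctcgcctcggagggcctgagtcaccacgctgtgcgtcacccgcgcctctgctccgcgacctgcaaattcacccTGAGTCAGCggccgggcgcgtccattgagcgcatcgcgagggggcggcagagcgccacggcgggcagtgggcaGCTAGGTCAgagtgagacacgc
Gclm: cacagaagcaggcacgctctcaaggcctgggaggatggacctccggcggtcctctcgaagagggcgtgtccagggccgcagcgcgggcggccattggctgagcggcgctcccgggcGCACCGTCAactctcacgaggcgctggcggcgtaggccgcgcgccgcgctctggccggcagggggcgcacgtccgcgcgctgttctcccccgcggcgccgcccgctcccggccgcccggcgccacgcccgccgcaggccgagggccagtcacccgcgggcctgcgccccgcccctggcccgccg

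Since the deleted gene encodes a protein that binds AU-rich elements, the 3′ untranslated regions of the 10 genes (the longest coding transcript of each in GENCODE M21, GRCm38) were searched for the 7-base element TATTTAT. It occurred in 4 of the 10, Nfe2l2, Gclm, Txnrd1 and Gsr, and in 28.9% of the 10529 kept genes with such a region. The median length of the region was 752 bases in the 10 genes and 1081 bases in the kept genes. The sites are shown with 11 bases on either side and the element in capitals; in Txnrd1 a second copy overlaps the first by 3 bases. None of these 4 genes passed the test between genotypes, and a match of letters does not show that the protein binds there.
Nfe2l2: actacagaactTATTTATactgttctcac
Gclm: aggccaatgttTATTTATgtgtctaaccc
Txnrd1: ctgttcagtttTATTTATttattttttaa
Gsr: tcatttgataaTATTTATaattaatattt

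On the control diet the genes covered a wide range of levels per length. The gene length behind the FPKM was shorter than the union of the GENCODE M21 exons for some genes. In proportion this was most so for Txnrd1 (3417 against 7086 bases) and Nfe2l2 (2475 against 3796). The order of nearby genes depends on this length. In WT, Ephx1 was the most abundant at 124 ± 12.8 FPKM (SD, n = 4), followed by Gclc at 68.3 ± 31 and Gclm at 51.5 ± 7.92. Txnrd1 (27.1 ± 6.78), Nfe2l2 (23.4 ± 4.39) and Gsr (16.4 ± 0.537) lay in the middle. Hmox1 (10.3 ± 1.41), Srxn1 (9.19 ± 1.52), Keap1 (8.28 ± 1.01) and Nqo1 (5.57 ± 1.73) were lowest, and the ranges of these 4 overlapped from each gene to the next. In all, 6 of the 9 neighbouring pairs in this order overlapped in range. On the ethanol diet Srxn1 was second in order of mean FPKM in both genotypes, where it had been the eighth in WT and the seventh in LKO. In LKO the mean was raised by ethanol library 2 (618 FPKM), and by group median Srxn1 (68.7) lay below Gclc (80.6). On this diet all 9 neighbouring pairs overlapped in either genotype.

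**Figure D1:**
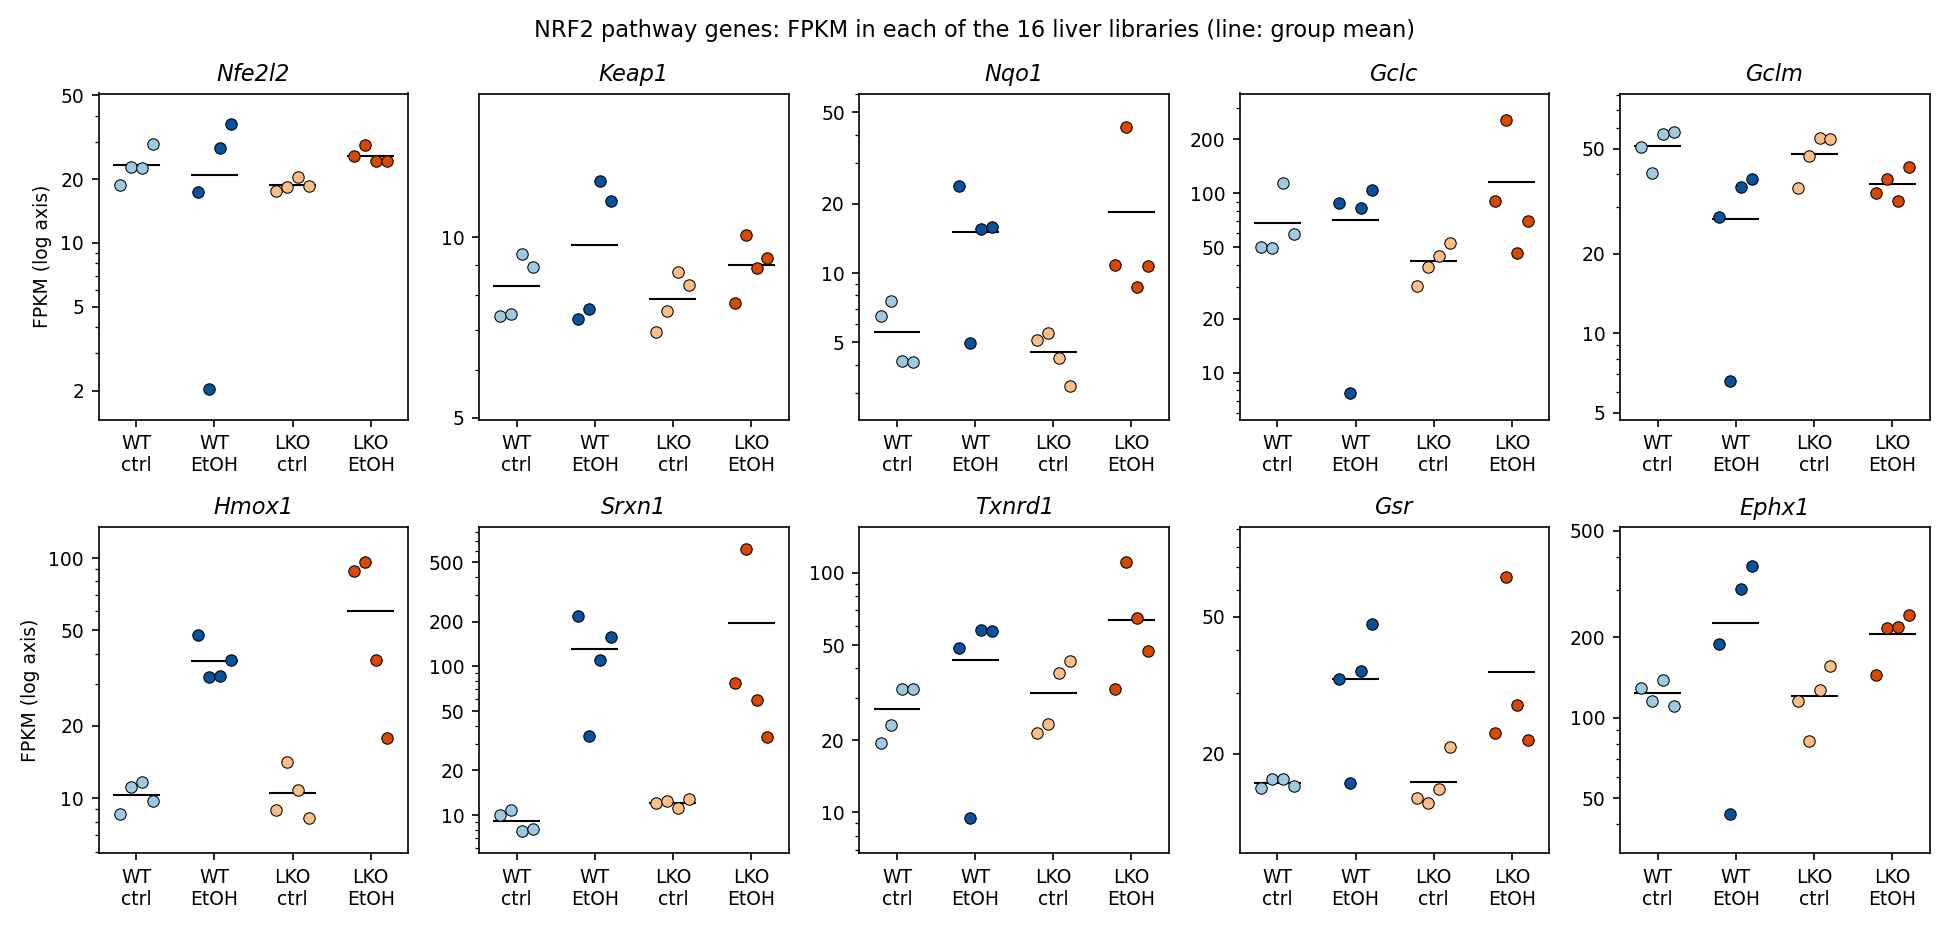
FPKM of the 10 genes on a log axis, 1 panel per gene, with 1 point per library (left to right libraries 1 to 4) and a line at the group mean; WT and LKO on control (ctrl) and ethanol (EtOH) diet, n = 4 each. Srxn1 and Hmox1 separate the diets in both genotypes, and WT ethanol library 2 is the lowest of the 8 ethanol libraries for 7 of the 10 genes while LKO ethanol library 2 is the highest of all 16 libraries for 6.

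The comparison of diets within a genotype asks how the pathway responded to ethanol with and without Zfp36l1 in the liver. In WT, 2 of the 10 genes were called higher and 0 lower at an adjusted p under 0.05 (limma, Benjamini-Hochberg over 11298 genes), where 4.18% of all genes were called and 2.58% were called higher. In LKO, 1 of the 10 was called, against 0.425% of all genes called and 0.168% called higher. For the mean response of both genotypes, 4 of the 10 were called, all higher, against 7.78% of all genes (4.59% higher and 3.19% lower). The median log2 fold change of the 10 genes was 0.46 in WT, 0.90 in LKO and 0.65 for the mean, beside −0.02, 0.06 and 0.02 for all genes tested. Without WT ethanol library 2, 5 of the 10 were called in WT (9.48% of all genes), 3 in LKO (3.62%) and 7 for the mean (20.5%). The LKO count moves with this library because 1 estimate of each gene's spread was taken over all groups. Log2 fold changes below are of FPKM + 1, which understates changes of low genes, and each comes with its SE, the standard error from limma.

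Srxn1 encodes sulfiredoxin, which repairs over-oxidised peroxiredoxins, and it changed most. Gene ENSMUSG00000032802 lies on the plus strand of chromosome 2, 152105516 to 152111376 (GRCm38). WT control libraries 1 to 4 measured 9.98, 10.9, 7.78 and 8.05 FPKM, and WT ethanol libraries 218.9, 34.2, 110.4 and 157.0. LKO control libraries measured 12.1, 12.5, 11.1 and 12.9, and LKO ethanol libraries 77.5, 617.6, 59.9 and 33.5. All 8 ethanol libraries were above all 8 control libraries, and the low WT value and the high LKO value both belonged to library 2 of their group. The group mean was 14.16-fold higher on ethanol in WT and 16.20-fold higher in LKO, but the ratio of group medians in LKO was 5.57, since 1 library carried the mean. The log2 fold change was 3.42 in WT (SE 0.668, adjusted p = 0.0109) and 2.93 in LKO (SE 0.668, adjusted p = 0.0711), which missed the threshold. The mean response was 3.18 (SE 0.472, adjusted p = 0.000844). In WT the call held under all 26 alternatives that were tried, with adjusted p up to 0.0419. In LKO the adjusted p was 0.0163 without WT ethanol library 2 and 0.228 at the most (without the filter on low values), and the response fell to 2.06 without LKO ethanol library 2.

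Hmox1 encodes haem oxygenase 1, which cleaves haem to biliverdin, iron and carbon monoxide. It lies on the plus strand of chromosome 8, 75093621 to 75100589. WT control libraries were at 8.59, 11.1, 11.7 and 9.77 FPKM and WT ethanol libraries at 47.9, 32, 32.4 and 37.6. LKO control libraries were at 8.97, 14.1, 10.8 and 8.27 and LKO ethanol libraries at 88.6, 96.3, 37.6 and 17.8. The diets did not overlap in either genotype, the WT ethanol libraries lay close together, and WT ethanol library 2 was not apart from its group here. Hmox1 rose by 1.76 in WT (SE 0.399, adjusted p = 0.0213), by 2.15 in LKO (SE 0.399, adjusted p = 0.0283) and by 1.95 on average (SE 0.282, adjusted p = 0.000725). The LKO call was lost when any of 7 of the 8 LKO libraries was left out, with adjusted p up to 0.146 (without LKO ethanol library 2). It held in the other 9 of the 16 fits that left out 1 library. These were the fit without LKO ethanol library 4, the lowest of its group, and those without a WT library. The WT call was lost without WT control library 1, 2 or 4 or WT ethanol library 4, with adjusted p up to 0.0703. It was also lost without the filter on low values (adjusted p = 0.0544) and with equal sums of FPKM (adjusted p = 0.053), and the LKO call without the filter (adjusted p = 0.0893), whereas the mean response was called in all 26 alternatives.

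Macrophages that take up red cells also express Hmox1, so the marker lists of these cells are given beside it. The 8 Kupffer cell and macrophage markers (Clec4f, Adgre1, Cd68, Marco, Vsig4, Timd4, Cd5l and Csf1r) summed to 101 to 287 FPKM in WT control, 104 to 334 in WT ethanol, 100 to 330 in LKO control and 58.1 to 332 in LKO ethanol libraries. The groups overlapped and none of the 8 was at 0 throughout a group. By limma 0 of the 8 were called for the mean response (2 at an unadjusted p under 0.05), with 2 above 0 and a median of −0.40. In WT 1 was called, Marco, higher by 1.71 (adjusted p = 0.0379), where 4.18% of all genes were called. There 4 of the 8 were above 0, with a median of −0.03. In the limma fit that omits WT ethanol library 2, Marco (1.91, adjusted p = 0.0185) and Cd68 (1.47, adjusted p = 0.0375) were called in WT, beside 9.48% of all genes. There 7 of the 8 were above 0, as were 7796 of the 11298 genes tested. Marco was also called for the mean in that fit (adjusted p = 0.0336), beside 20.5% of all genes. For that mean 2 of the 8 were above 0, with a median of −0.17. In LKO 1 of the 8 was above 0, with a median of −0.66, and 0 were called (limma; 1 at an unadjusted p under 0.05). In LKO ethanol libraries 1 and 2, where Hmox1 was 88.6 and 96.3, the marker sum was 147 and 332. The 5 neutrophil markers summed to 0.938 to 6.13 FPKM in the 8 control libraries and to 2.65 to 20.6 in the 8 ethanol libraries, with Ly6g at 0 in both control groups, and of the 3 tested Retnlg was called for the mean response (0.91, adjusted p = 0.0172). In WT ethanol library 2, with red cell markers at 2160 FPKM, Hmox1 was 32, the lowest of its group. Of the markers of other cell types, 3 were also called by limma for the mean response, where 4.59% of all genes were called higher. Lyve1 (1.75, adjusted p = 0.0208) was 1 of 6 endothelial markers, of which 2 were above 0, with a median of −0.39. Sox9 (0.79, adjusted p = 0.016) was 1 of 2 bile duct markers tested, and the other was at −0.36. Hgf (0.65, adjusted p = 0.0388) was 1 of 7 stellate markers, of which 5 were above 0, with a median of 0.07. The part of any of these cells in the results was not tested.

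Nqo1 encodes NAD(P)H quinone dehydrogenase 1, which reduces quinones by 2 electrons at once, and is a classic read-out of NRF2 activity. It lies on the minus strand of chromosome 8, 107388225 to 107403206. In WT the control libraries had 6.48, 7.56, 4.15 and 4.11 FPKM and the ethanol libraries 24, 4.95, 15.5 and 15.8. In LKO the control libraries had 5.12, 5.49, 4.26 and 3.23 and the ethanol libraries 10.9, 43.1, 8.69 and 10.7. In WT only library 2 of the ethanol group lay within the control range, and in LKO the diets did not overlap. The mean response was 1.34 (SE 0.319, adjusted p = 0.0167) and was called, while the single genotypes were not called, at 1.15 in WT (SE 0.452, adjusted p = 0.165) and 1.52 in LKO (SE 0.452, adjusted p = 0.185). Without WT ethanol library 2 both were called, at 1.57 in WT (adjusted p = 0.0244) and 1.52 in LKO (adjusted p = 0.0352). The LKO response fell to 1.02 (adjusted p = 0.58) without LKO ethanol library 2, and the call of the mean was lost without the filter on low values (adjusted p = 0.0528).

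Gsr encodes glutathione reductase, which returns oxidised glutathione to its reduced form with NADPH, and lies on the plus strand of chromosome 8, 33652523 to 33698163. WT control libraries were close together at 15.9, 16.9, 16.9 and 16.1 FPKM, and WT ethanol libraries were at 32.9, 16.5, 34.7 and 47.8. LKO libraries were at 14.9, 14.4, 15.8 and 21 on the control diet and at 23, 65.2, 27.8 and 21.9 on ethanol. The 3 WT ethanol libraries other than library 2 lay above every control library, and in LKO the diets did not overlap, by a narrow margin. The mean response was 0.88 (SE 0.24, adjusted p = 0.033). The values of 0.87 in WT (adjusted p = 0.162) and 0.89 in LKO (adjusted p = 0.384) were not called, and the LKO value was 0.54 without LKO ethanol library 2. The call of the mean was lost in 11 of the 16 fits that left out 1 library, with adjusted p up to 0.0717 (without LKO control library 2), and also without the filter and with equal sums of FPKM (adjusted p = 0.122 in the latter). It was 1.02 with an adjusted p of 0.00264 without WT ethanol library 2. The WT response was then 1.16 and called (adjusted p = 0.0228).

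Txnrd1 encodes the cytosolic thioredoxin reductase, a selenoprotein that keeps thioredoxin reduced. It measured 19.5, 23.2, 32.7 and 32.9 FPKM on the control diet and 48.4, 9.47, 57.7 and 57.2 on ethanol in WT. In LKO the control libraries were at 21.5, 23.5, 38.1 and 42.8 and the ethanol libraries at 32.7, 111, 64.6 and 47.1. Libraries 3 and 4 were above libraries 1 and 2 in both control groups. The response was 0.41 in WT (SE 0.491, adjusted p = 0.689) and 0.91 in LKO (SE 0.491, adjusted p = 0.628). The WT value was 1.01 without WT ethanol library 2 (adjusted p = 0.0753), and the LKO value 0.60 without LKO ethanol library 2. Its mean of 0.66 (SE 0.347, adjusted p = 0.291) was not called with all libraries, and was 0.96 and called without WT ethanol library 2 (adjusted p = 0.01). Ephx1, the microsomal epoxide hydrolase, measured 129.2, 116.1, 138.9 and 110.5 FPKM on the control diet and 189.0, 43.7, 302.9 and 368.9 on ethanol in WT, so that library 2 was the lowest and the 3 other ethanol libraries the highest of the 8. In LKO its control libraries were at 116.5, 81.7, 126.6 and 155.9 and its ethanol libraries at 144.8, 217.2, 219.1 and 243.3. The response of 0.50 in WT (SE 0.479, adjusted p = 0.602) became 1.16 without WT ethanol library 2 (SE 0.259, adjusted p = 0.0132). The LKO response of Ephx1 was 0.78 (SE 0.479, adjusted p = 0.707; adjusted p = 0.0853 without that library). Its mean response was 0.64 (SE 0.339, adjusted p = 0.294), and 0.97 and called without that library (adjusted p = 0.00176).

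Gclc and Gclm encode the catalytic and the modifier subunit of glutamate cysteine ligase, which carries out the first and limiting step of glutathione synthesis. Gclc lies on the plus strand of chromosome 9, 77754535 to 77794485, and Gclm on the plus strand of chromosome 3, 122245557 to 122270732. Gclm measured 50.6, 40.6, 56.8 and 57.9 FPKM on the control diet and 27.5, 6.58, 35.9 and 38.4 on ethanol in WT, and 35.5, 46.9, 55 and 54.5 against 33.9, 38.5, 31.7 and 42.8 in LKO. All 4 WT ethanol libraries were below all WT control libraries, with or without library 2, and the LKO groups overlapped. The log2 fold change was −1.13 in WT (SE 0.398, adjusted p = 0.119) and −0.37 in LKO (SE 0.398, adjusted p = 0.921), neither of them called. The WT value was −0.59 without WT ethanol library 2 (adjusted p = 0.0743), and it was called in 5 of the 10 alternatives that did more than leave out 1 library. The mean for Gclm of −0.75 (SE 0.281, adjusted p = 0.116) was not called with all libraries, and was −0.48 and called without WT ethanol library 2 (SE 0.136, adjusted p = 0.0221). It was likewise called in 5 of those 10, among them quantile normalization and median of ratios scaling, and it was below 0 in all 26 alternatives.

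Gclc showed no such separation. It measured 50, 49.6, 114 and 59.2 FPKM on the control diet and 87.8, 7.68, 82.8 and 105 on ethanol in WT, and 30.3, 39, 44.5 and 53.1 against 91, 257, 46.6 and 70.1 in LKO. The WT groups overlapped through control library 3 and ethanol library 2, and the LKO groups overlapped through ethanol library 3. The response was −0.35 in WT (SE 0.654, adjusted p = 0.806), 0.51 without WT ethanol library 2 (adjusted p = 0.494), and 1.18 in LKO (SE 0.654, adjusted p = 0.649), or 0.69 without LKO ethanol library 2. The mean response of Gclc was 0.41 (SE 0.462, adjusted p = 0.669). It was 0.84 without WT ethanol library 2 (adjusted p = 0.056) and 0.17 without LKO ethanol library 2, and it was called in 2 of the 26 alternatives, array weights and the split term without WT ethanol library 2. The ratio of Gclc to Gclm within a library, which no scaling of libraries can change, was 0.99, 1.22, 2.01 and 1.02 in WT control and 3.19, 1.17, 2.31 and 2.72 in WT ethanol libraries. LKO control libraries had ratios of 0.85, 0.83, 0.81 and 0.97 and LKO ethanol libraries 2.69, 6.66, 1.47 and 1.64. The ratio was above that of every control library of its genotype in 7 of the 8 ethanol libraries, the exception being WT ethanol library 2. It was examined after the values of both genes had been seen and is given without a test.

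**Figure D2:**
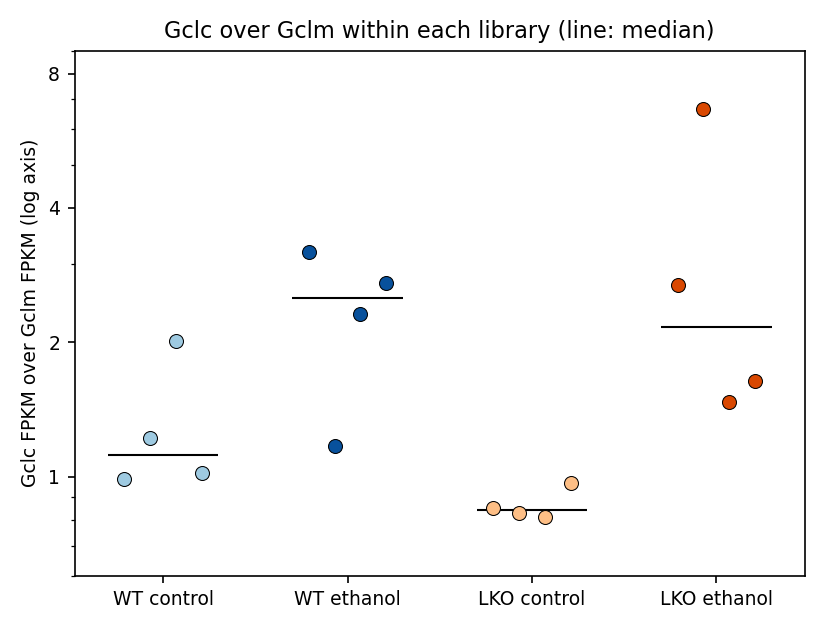
Ratio of Gclc FPKM to Gclm FPKM within each library on a log axis, by group, with 1 point per library and a line at the group median (n = 4 each). LKO control libraries lie between 0.81 and 0.97 and LKO ethanol libraries between 1.47 and 6.66.

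Neither the gene of the factor itself nor that of its inhibitor was called in WT, in LKO or for the mean, with or without WT ethanol library 2. With array weights, under which 38.4% of all genes were called in WT and 36.7% for the mean, Keap1 was called in WT (0.52) and both genes for the mean (Keap1 0.35, Nfe2l2 0.37). Nfe2l2, on the minus strand of chromosome 2, 75675513 to 75704641, measured 18.7, 22.9, 22.6 and 29.3 FPKM in WT control and 17.5, 2.04, 28 and 36.4 in WT ethanol libraries. LKO control libraries had 17.7, 18.4, 20.5 and 18.6 and LKO ethanol libraries 25.7, 29.1, 24.3 and 24.5, and these groups did not overlap. The WT response was −0.62 (SE 0.524, adjusted p = 0.55) with library 2, whose value of 2.04 came from 50 reads, and 0.17 (SE 0.211, adjusted p = 0.649) without it. The LKO response was 0.44 (SE 0.524, adjusted p = 0.931; adjusted p = 0.233 without WT ethanol library 2). The mean response of Nfe2l2 was −0.09 (SE 0.37, adjusted p = 0.929), and 0.31 without that library (adjusted p = 0.147). Keap1 stayed within 6.95 to 12.4 FPKM in all 16 libraries, with a response of 0.18 in WT (SE 0.208, adjusted p = 0.68) and 0.17 in LKO (SE 0.208, adjusted p = 0.939). An antisense gene, Gm16754, overlaps 10.9% of the exon bases of Keap1, but reached at most 0.58 FPKM.

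**Figure D3:**
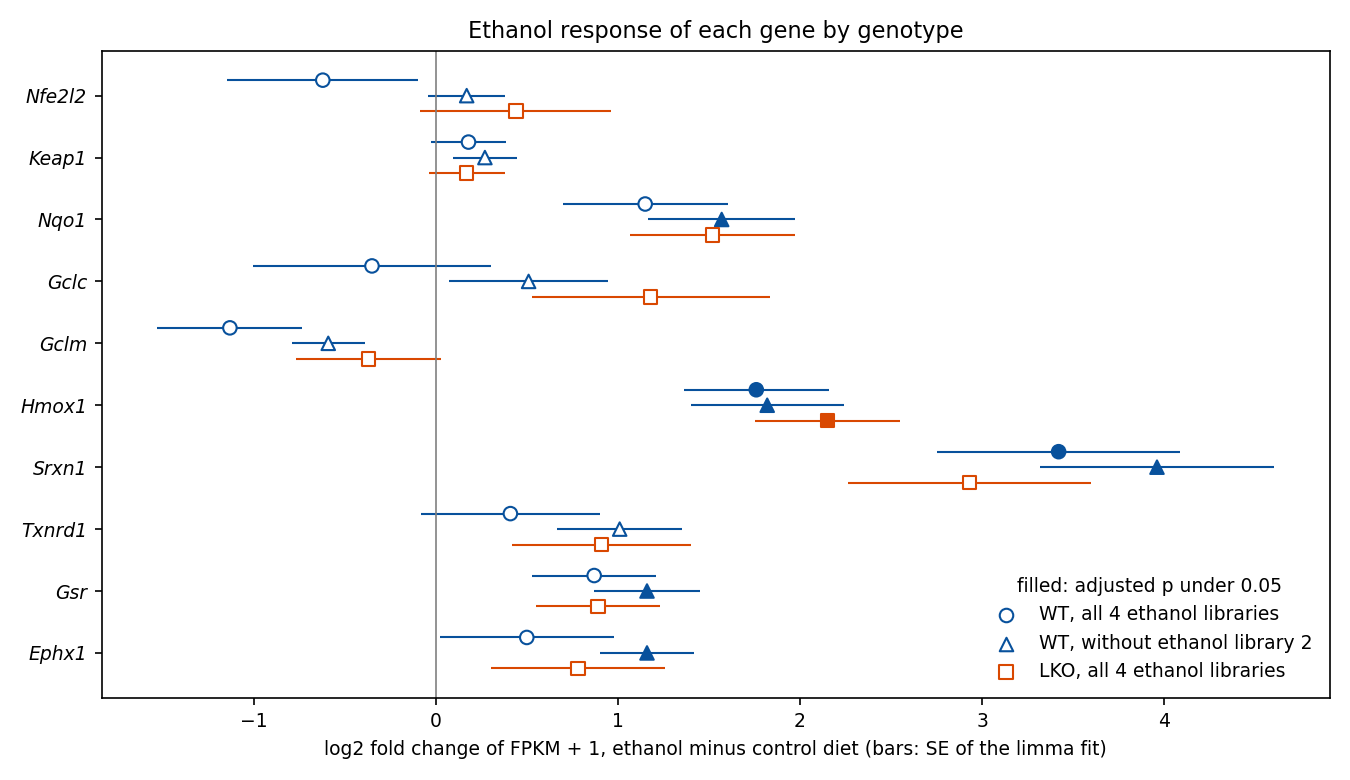
Log2 fold change of FPKM + 1, ethanol minus control diet, with the SE of the limma fit, for the 10 genes in WT with all libraries (circles), in WT without ethanol library 2 (triangles) and in LKO (squares); filled symbols are called. Without WT ethanol library 2 the WT values of Nfe2l2 (−0.62 to 0.17) and Gclc (−0.35 to 0.51) cross 0.

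The groups were also compared by whether their libraries overlapped. In WT, 2 of the 10 genes (Srxn1 and Hmox1) had all ethanol libraries above all control libraries, where 5.62% of all genes did, and 1 (Gclm) had all below, where 4.45% did. Without WT ethanol library 2 these were 6 of the 10, with Nqo1, Txnrd1, Gsr and Ephx1 added (15.6% of all genes), and 1 of the 10 (5.16%). In LKO, 5 of the 10 (Nfe2l2, Nqo1, Hmox1, Srxn1 and Gsr) were higher without overlap, against 8.15% of all genes, and 0 were lower, against 4.14%. Library by library, WT ethanol libraries 1, 3 and 4 exceeded every WT control library in 6, 7 and 8 of the 10 genes, and WT ethanol library 2 did so in 2, where 24.3, 47.3, 57.9 and 22.0% of the kept genes did. Library 1 was below every WT control library in 3 of the 10 (Nfe2l2, Keap1 and Gclm; 35.8% of the kept genes) and library 2 in 5 (63.3%). LKO ethanol libraries 1 to 4 exceeded every LKO control library in 6, 9, 8 and 9 of the 10, where 28.5, 44.3, 22.1 and 32.3% of the kept genes did.

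The ethanol response was also taken within each side of the split, libraries 1 and 2 or libraries 3 and 4. In LKO libraries 1 and 2 the ethanol response of Srxn1 was 4.05, that of Hmox1 2.93 and that of Gclc 2.12, and in LKO libraries 3 and 4 they were 1.82, 1.37 and 0.23. In WT, with library 1 as the only ethanol library on its side, the responses were 4.26, 2.18 and 0.81 on the side of libraries 1 and 2 and 3.90, 1.62 and 0.18 on the other. Each of these responses was above 0 on both sides. In LKO, those of Srxn1 and Gclc on the side of libraries 1 and 2 leaned on ethanol library 2. Srxn1 was 617.6 FPKM there and 77.5 in ethanol library 1, and Gclc was 257 and 91. Gclm was below 0 on both sides in both genotypes (−0.70 and −0.61 in WT, −0.17 and −0.56 in LKO). A term for the side alone left the number of the 10 genes called at 2 in WT, 1 in LKO and 4 for the mean (6.87%, 0.841% and 12.3% of all genes). With this term and without WT ethanol library 2, 7 of the 10 genes were called in WT, 5 in LKO and 8 for the mean, where 19.7%, 10.7% and 32.6% of all genes were called. The difference between sides was not tested.

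LKO was compared with WT to ask whether the loss of Zfp36l1 altered the pathway. By limma, 0 of the 10 genes were called on the control diet, on the ethanol diet and for the mean of both, where 0.00885%, 0.0797% and 0.142% of all genes were called. None had an unadjusted p under 0.05 in any of the 3, and voom on the whole reads also called 0. On the control diet the largest differences were those of Gclc (−0.63, SE 0.654, adjusted p = 1) and Srxn1 (0.38, SE 0.668, adjusted p = 1). Srxn1 was higher in each LKO control library (11.1 to 12.9 FPKM) than in any WT control library (7.78 to 10.9), the only one of the 10 without overlap, against 1.61% of all genes higher without overlap. On ethanol, the differences of Gclc (0.89, adjusted p = 0.619) and Nfe2l2 (0.77, adjusted p = 0.586) became 0.04 and −0.02 without WT ethanol library 2.

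The interaction, the ethanol response of LKO minus that of WT, was called for 0 of the 10 genes and 0% of all genes by limma, with 0 of the 10 at an unadjusted p under 0.05 and 0 by voom. It was largest for Gclc, at 1.52 (SE 0.924, adjusted p = 0.927), and Nfe2l2, at 1.06 (SE 0.74, adjusted p = 0.927), and these fell to 0.67 and 0.27 without WT ethanol library 2. For Srxn1 it was −0.48 (SE 0.945, adjusted p = 0.941) and −1.02 (SE 0.875, adjusted p = 0.968) without that library. These standard errors leave room for sizeable differences in either direction, so the responses were not shown to differ and were not shown to be alike.

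The genes around the core pathway were read from 6 lists, for the mean ethanol response, in which 4.59% of all genes tested were called higher and 3.19% lower. Of 11 partners and regulators of NRF2, such as the small MAF proteins, BACH1 and the ubiquitin ligase subunits, 0 were called by limma (1 of 11 at an unadjusted p under 0.05), with a median log2 fold change of 0.02. Without WT ethanol library 2, 3 of the 11 were called higher, where 14.8% of all genes were, namely Sqstm1 (1.29), Maff (0.97) and Mafk (0.95), which are named here because of that result. Of 8 further glutathione and thioredoxin genes, 6 were tested and 2 were called, both higher (4.59% of all genes). These were Gss, glutathione synthetase (0.72, SE 0.183, adjusted p = 0.0227), and Glrx, glutaredoxin (0.78, SE 0.219, adjusted p = 0.0372). The other 2, Slc7a11 and Gpx2, were too low to be kept, with Slc7a11 at 0.307 FPKM at the most.

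Conjugation and export genes were called most often, 9 of 15 higher and 1 lower (4.59% and 3.19% of all genes), with a median of 1.48; the lower one was Ugt1a6a, a glucuronosyltransferase (−0.73, adjusted p = 0.0446). Leaving out WT ethanol library 2 gave 13 called higher and 1 lower, in a fit where 14.8% of all genes were called higher. Gstm3 (4.38, SE 0.434, adjusted p = 5.10e-05), Gsta2 (2.46, adjusted p = 0.000602) and Gstm1 (1.75, adjusted p = 0.00206) encode glutathione S-transferases, and Cbr3 (2.43, adjusted p = 0.00147) a carbonyl reductase. The transferases belong to families of close copies, and how reads shared between copies were counted is not given in the sources used here. CAR and PXR, nuclear receptors for foreign compounds, also induce several of these genes; of 9 of their targets 2 were called, both higher (4.59% of all genes), namely Cyp2b10 (6.95, adjusted p = 2.92e-10) and Cyp2c55 (0.67, adjusted p = 0.0372). With WT ethanol library 2 left out, 4 of the 9 were called higher, again beside 14.8% of all genes. Which receptor or factor the conjugation genes followed was not tested.

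Genes that supply NADPH serve these same enzymes. Of 6 tested, 0 were called higher and 2 lower, where 4.59% and 3.19% of all genes were, namely Me1, malic enzyme (−1.32, SE 0.338, adjusted p = 0.0239), and Idh1, isocitrate dehydrogenase (−1.07, SE 0.297, adjusted p = 0.0348). Both ferritin subunits rose among the 5 iron and haem genes, Fth1 by 0.67 (adjusted p = 0.0327) and Ftl1 by 0.65 (adjusted p = 0.032). Of 12 other antioxidant enzymes, 0 were called higher and 3 lower, beside the same shares of all genes. These were Cat, the peroxisomal catalase (−1.20, SE 0.357, adjusted p = 0.0476), the mitochondrial thioredoxin reductase Txnrd2 (−0.59, adjusted p = 0.0247) and Nqo2 (−0.56, adjusted p = 0.0449), a relative of Nqo1.

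**Figure D4:**
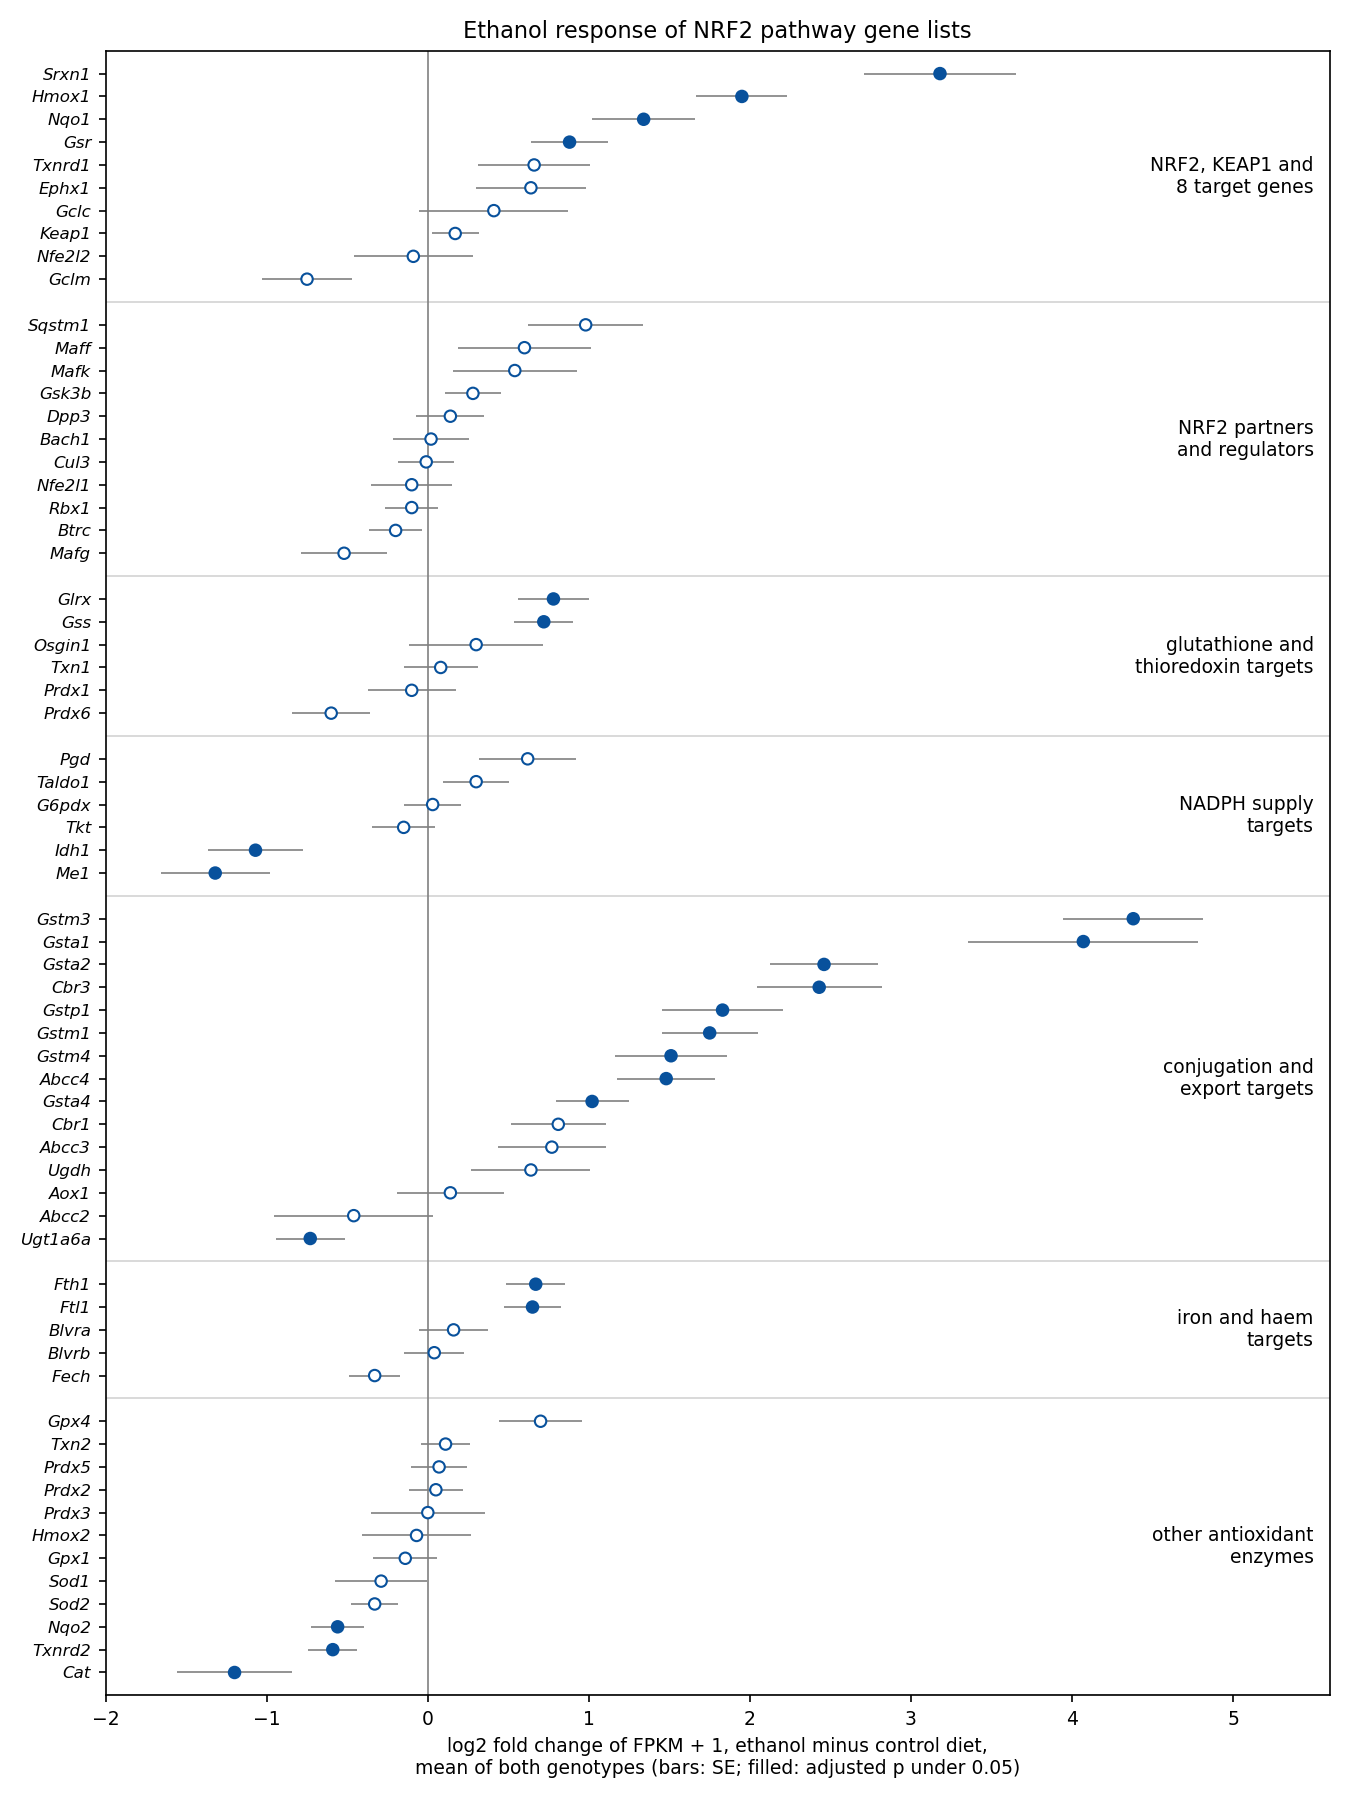
Log2 fold change of FPKM + 1 (ethanol minus control diet, mean of both genotypes, all 16 libraries) with SE for the 10 genes and the tested genes of 6 pathway lists; filled points are called at an adjusted p under 0.05. Calls above 0 are most frequent among conjugation and export genes, and those of the NADPH list and of the other antioxidant enzymes are below 0.

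To find the genes whose values over the 16 libraries were most like those of Nqo1, Gclc, Srxn1 and Hmox1, Spearman's rho was taken against 10455 kept genes with a symbol; these are descriptions over libraries that share the diet groups. Nearest to Srxn1 were Gstp2 (0.965), Pvr (0.956) and Get4 (0.947). Nearest to Hmox1 were Tubb6 (0.924), Cdpf1 (0.915) and Dusp3 (0.903), and nearest to Nqo1 were Mcam (0.962), Picalm (0.950) and Nt5c3b (0.947). Gclc had Eif5 (0.950), Prdm4 (0.909) and Ppfibp2 (0.906) as its nearest genes. Among the pathway genes themselves, Srxn1 and Hmox1 (0.815), Hmox1 and Nqo1 (0.806) and Srxn1 and Nqo1 (0.803) ranked alike. Many genes outside the pathway set were nearer to each. Of the 10455 genes, Hmox1 was at rank 100 for Srxn1 and 353 for Nqo1. Srxn1 was at rank 67 for Hmox1 and 376 for Nqo1, and Nqo1 at 78 for Hmox1 and 128 for Srxn1. Gclm ran against Srxn1 (−0.709) and Nqo1 (−0.585). Gclc was not close to Srxn1 (0.368) or to Gclm (0.112, and −0.079 without WT ethanol library 2), and was nearer to Gsr (0.724) and Ephx1 (0.647). Nfe2l2 had a rho of 0.197 with Srxn1 and 0.626 with Gclc.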

How the data were processed

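Total liver RNA of 16 mouse libraries was sequenced after a standard Illumina preparation, per the labels. The authors deposited a table of FPKM values for 35275 Ensembl gene IDs; the submitters' processing notes name fastp, STAR 2.6.1, HTSeq, DESeq2 and the mm10 build, without saying which step made the table. The length rule and strand setting are not given in the sources used here. Within each gene the deposited FPKM were whole multiples of 1 read: 100% of values lay within 0.1 of a whole read among 20520 genes above 0 in at least 4 libraries. These reads gave the depth and a voom alternative.

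Genes with FPKM of at least 1 in at least 4 libraries (11298) were tested on the log2(FPKM + 1) scale with limma 3.58.1 (R 4.3.3): a group-means model over all 16 libraries, eBayes with trend, two-sided, Benjamini-Hochberg adjustment over the genes kept, called under 0.05. A count test foreseen for raw counts was not needed. The procedure was tested on simulated data. Named were the 10 genes, up to 4 called genes per list by smallest adjusted p (Ugt1a6a and the marker genes were added after their values were seen), and the 3 genes closest to each of 4 of the 10 by Spearman's rho. The genes, lists and motifs were chosen with earlier results of these data known. Symbols and positions are from GENCODE M21 (GRCm38), promoters from RefSeq. Alternatives covered the pseudocount (0.1), the filter, 3 scalings, array weights, voom, a term for the split within groups, and each library left out; quantile normalization without WT ethanol library 2 was added after seeing the data.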

Additional observations from a re-analysis of the deposited data

Results flagged for a closer look

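Of the 40 combinations of a gene and a group, 4 held a library that passed Dixon's critical value for 4 values. The measure was its gap to the nearest of the other 3, divided by the range of the group. It was taken on FPKM and not on the log2 scale of the tests. For values with a normal spread, chance gives about 1 in 20. In LKO ethanol library 2, Nqo1 was 43.1 FPKM against 8.69 to 10.9 in the other 3 libraries of the group, Srxn1 was 618 against 33.5 to 77.5, and Gsr was 65.2 against 21.9 to 27.8. That library was the highest of all 16 for 6 of the 10 genes, while its share of mitochondrial reads (5.19%) and its total of 21093141 reads lay within the range of the others. Its summed neutrophil markers (20.6 FPKM) were the highest of the 16 libraries, its macrophage markers (332) the second highest, and its array weight was 0.446. The part of these in the values was not tested. In WT control library 3, Gclc was 114 FPKM against 49.6 to 59.2. The low values of WT ethanol library 2 did not pass this criterion in any of the 10 genes. FPKM cannot fall below 0, which leaves less room for a gap below a group than above it. The criterion therefore does not show that library to be ordinary.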

How the results depend on the processing

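The number of the 10 genes called in WT (2) was 1 without the filter on low values (1.16% of all genes) and with equal sums of FPKM (2.24%), 4 with quantile normalization (8.25%) and with median of ratios scaling (6.77%), 8 with array weights (38.4%), 7 with the split term without WT ethanol library 2 (19.7%), and 6 with quantile normalization without that library (9.72%); leaving out 1 library gave 1 to 5. In LKO (1) it was 0 without the filter (0.0738%), 2 with quantile normalization (0.929%) and with median of ratios scaling (1.08%), 5 with array weights (7.69%) and with the split term without WT ethanol library 2 (10.7%), and 4 with quantile normalization without that library (4.43%); leaving out 1 library gave 0 to 3. For the mean response (4) it was 2 without the filter (2.63%), 3 with equal sums of FPKM (4.73%), 5 with quantile normalization (12.9%) and with median of ratios scaling (11.9%), 10 with array weights (36.7%), 8 with the split term without WT ethanol library 2 (32.6%), and 7 with quantile normalization without that library (20.0%); leaving out 1 library gave 3 to 7. Between genotypes on ethanol, array weights (0.0418 for WT ethanol library 2) called 1 gene, Keap1, lower in LKO, where 30.7% of all genes were called. The WT response of Nfe2l2 turned positive with array weights (0.309), the split term without WT ethanol library 2 (0.136) and without that library alone (0.172), as did its mean response of −0.09 (0.37, 0.289 and 0.307, and 0.198 with quantile normalization without that library). The WT response of Gclc turned to 0.485, 0.512 and 0.505 under the first 3 of these and to 0.464 under the last. The difference of LKO from WT on ethanol turned to −0.144 for Gclc and −0.153 for Nfe2l2 with array weights. Leaving out 1 library gave −1.03 to 0.172 for Nfe2l2 in WT, −0.297 to 0.307 for its mean response, −0.0176 to 1.19 for its difference between genotypes on ethanol, −0.697 to 0.505 for Gclc in WT, 0.036 to 1.24 for its difference between genotypes on ethanol, and −1.36 (without LKO ethanol library 2) to 0.0301 (without LKO ethanol library 4) for the Srxn1 interaction. The cause of these changes was not tested. Over the diet responses of the 10 genes, 3 interactions (Gclc, Nfe2l2 and Srxn1) and 4 differences between genotypes (Gclc and Srxn1 on the control diet, Gclc and Nfe2l2 on ethanol), 864 values under the alternatives kept their direction and call, 55 gained a call, 28 lost one and 15 reversed. The lowest value, Nfe2l2 in WT ethanol library 2, rests on 50 reads. That library had the lowest total (9890475 reads) and the largest share of mitochondrial reads (22.52%). The part of either in its values was not tested. No paired analysis was made, because the labels give no replicate number that groups share. The numbers used here only follow the order of the records.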
